A study of Homo sapiens with 6 samples.

Results

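The IL-1 gene cluster was taken as a stretch of 420 kb on human chromosome 2, from 113500000 to 113920000 in the genome build hg19, and its members are the H3K27ac peaks that overlap this stretch. There were 30 such peaks in M2 macrophages, of 56420 in that list, and 9 in THP-1 cells, of 31444. H3K27ac, acetylation of lysine 27 of histone H3, marks active promoters and enhancers. The compared groups were M2 macrophages, for which the labels name no source cell, and THP-1, a human monocytic leukaemia line that the labels call human monocytes. Both were grown in RPMI medium with 10% fetal bovine serum, and no further treatment is given for either. For each cell type 1 library was made for H3K27ac (antibody D5E4), 1 for YY1 and 1 for input. Only the H3K27ac peak lists are used here. No difference between the cell types therefore has a replicate check, and no p-value is given. The cell types were not checked against marker genes, because hg19 bounds were at hand for the genes of this cluster alone.

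The cluster holds both the signal and its brake. IL1A and IL1B encode IL-1 alpha and IL-1 beta, inflammatory cytokines that act through the same receptor. IL1RN encodes the IL-1 receptor antagonist, which occupies that receptor without signalling and which IL-4 raises in human monocytes. The related cytokine genes lie between IL1B and IL1RN, in the order IL37, IL36G, IL36A, IL36B, IL36RN and IL1F10. CKAP2L precedes IL1A and PSD4 follows IL1RN. Gene bounds are rounded to 1 kb: IL1A from 113531000 to 113543000, IL1B from 113587000 to 113594000 and IL1RN from 113875000 to 113892000. IL1A and IL1B are read from the minus strand, so their starts lie at the upper bound, and IL1RN is read from the plus strand. Distances from a start carry this rounding, and for IL1A the rounded start may not be the listed one. The IL36 genes were not placed, so no peak was assigned to any of them.

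The promoters of the cytokine genes and of the antagonist are shown because the peaks lay differently around them. The sequences are from RefSeq in GRCh38.p14, which is not the build of the peaks, and were matched by gene symbol for all 3 genes. Each runs 5′ to 3′ along its gene, from 250 bases before the listed start to 50 bases after it. Capitals mark matches on either strand to a motif. For the TATA box the letters searched were TATAAA. Those of AP-1, a factor of the cell's response to stimuli, were TGANTCA. Those of C/EBP, a family that drives myeloid genes, were TTGCNNAA. For PU.1, the main factor of the macrophage lineage, they were GAGGAAG, and for YY1, which the series also profiled, GCCATNTT. The letters TGACGTCA stood for CREB, and an NF-kB motif was searched as well. IL1RN has 3 listed starts, and the inner starts lie 9.52 and 9.63 kb downstream of the first in GRCh38. The outermost and the innermost are shown. They lie at chr2:112784444-112784743 (minus strand) for IL1A, chr2:112836730-112837029 (minus strand) for IL1B, and chr2:113117721-113118020 and chr2:113127348-113127647 (plus strand) for IL1RN.
IL1A: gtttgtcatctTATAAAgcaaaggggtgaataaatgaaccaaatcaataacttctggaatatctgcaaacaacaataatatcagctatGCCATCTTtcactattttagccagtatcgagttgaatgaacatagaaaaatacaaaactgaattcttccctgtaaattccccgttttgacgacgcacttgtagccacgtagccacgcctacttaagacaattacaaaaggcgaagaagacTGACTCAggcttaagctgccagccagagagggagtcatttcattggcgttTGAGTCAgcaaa
IL1B: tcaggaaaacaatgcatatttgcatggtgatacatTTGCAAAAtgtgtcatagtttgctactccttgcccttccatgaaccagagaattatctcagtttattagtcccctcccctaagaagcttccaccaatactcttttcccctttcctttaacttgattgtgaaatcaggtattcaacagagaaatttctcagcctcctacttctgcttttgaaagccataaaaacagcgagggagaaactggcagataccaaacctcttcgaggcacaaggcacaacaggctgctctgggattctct
IL1RN outermost start: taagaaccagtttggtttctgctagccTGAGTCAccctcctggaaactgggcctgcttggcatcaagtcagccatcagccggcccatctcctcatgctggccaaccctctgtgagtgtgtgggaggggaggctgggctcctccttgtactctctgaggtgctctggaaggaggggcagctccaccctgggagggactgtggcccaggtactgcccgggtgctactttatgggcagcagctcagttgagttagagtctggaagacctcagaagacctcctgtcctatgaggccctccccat
IL1RN innermost start: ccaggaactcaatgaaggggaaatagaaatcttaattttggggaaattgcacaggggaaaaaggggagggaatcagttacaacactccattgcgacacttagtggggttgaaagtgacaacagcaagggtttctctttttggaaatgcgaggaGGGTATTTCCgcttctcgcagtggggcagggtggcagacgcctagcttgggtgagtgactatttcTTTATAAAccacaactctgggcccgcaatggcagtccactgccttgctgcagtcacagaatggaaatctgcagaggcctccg

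The IL1A promoter held the AP-1 letters at 2 places and the YY1 letters at 1. The AP-1 letters occur in 7.71% and the YY1 letters in 6.58% of all 35116 promoters of the table. Its TATAAA match lies 239 bases before the start. The IL1B promoter held only the C/EBP letters, which 10.5% of all promoters hold. At IL1RN the outermost start had the AP-1 letters, and the inner starts shared 1 match to the NF-kB motif, which 1.91% of promoters hold. The innermost start also had TATAAA 30 bases before it, with an overlapping match on the other strand, and 11.5% of promoters hold this motif. The PU.1 and CREB letters were in none of these windows. They occur in 13.6% and 1.85% of all promoters. A match describes the letters only.

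H3K27ac covered far more of the cluster in M2 macrophages than in THP-1 cells. Peaks covered 51.4 kb of the stretch in M2 macrophages, which is 12.2% of it, and 7.82 kb in THP-1 cells, which is 1.86%. The ratio of covered length was 6.57, beside 2.19 over the whole lists and 2.08 over chromosome 2. In peak numbers the ratio was 3.33 in the cluster and 1.79 over the lists. The median M2 peak of the cluster was 813.5 bp wide and 6.91-fold enriched over its local background, against 743 bp and 5.42-fold in the whole M2 list. The median THP-1 peak of the cluster was 763 bp wide and 4.41-fold enriched, against 661 bp and 3.67-fold in the whole THP-1 list. Fold enrichment is the peak caller's value at the summit, each list against its own background, so it ranks peaks within a list and is not compared between lists. In the 50 kb on either side of the stretch, peaks covered 13.9 kb in M2 macrophages and 5.31 kb in THP-1 cells, a ratio of 2.61.

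**Figure D1:**
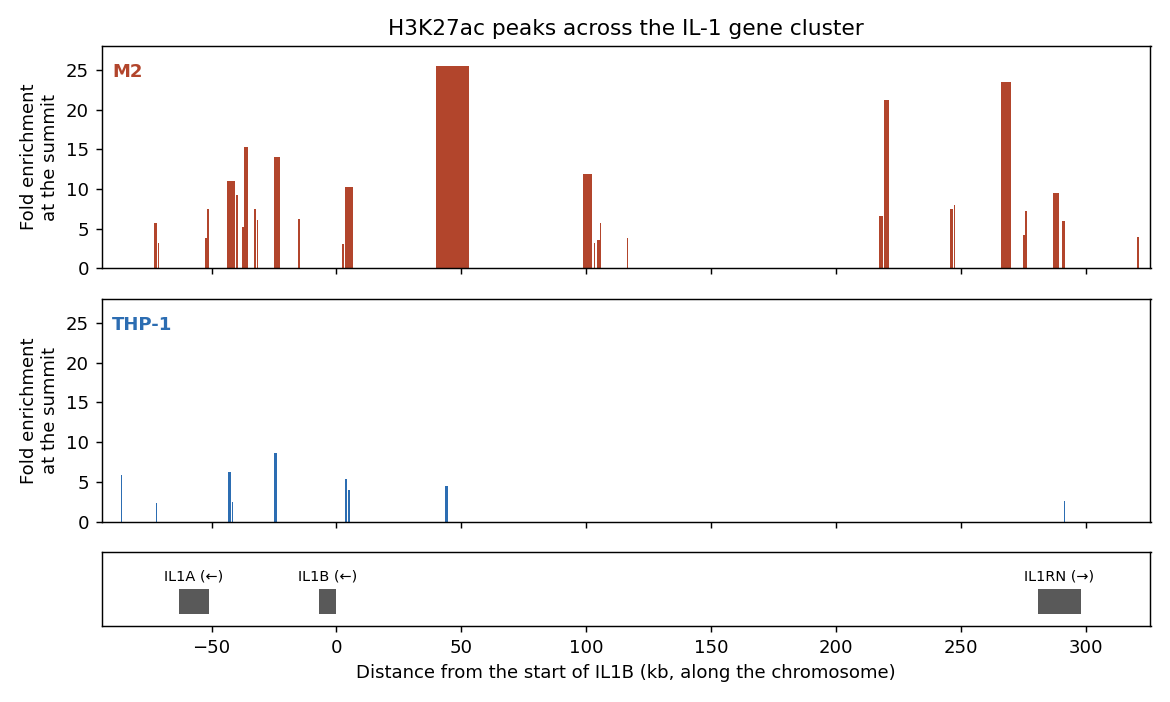
H3K27ac peaks of M2 macrophages (top) and THP-1 cells (middle) across the cluster. Each bar is a peak, as wide as the peak (at least 0.6 kb for visibility) and as high as its fold enrichment, over the distance in kb from the start of IL1B along the chromosome, and the bottom row shows the 3 genes with arrows for their strand. M2 peaks reach 25.5-fold and THP-1 peaks 8.68-fold, each against the background of its own list, so these heights are not compared between lists. No THP-1 peak lies between the one at about 44 kb and the one inside IL1RN.

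Most of the sequence marked in THP-1 cells lay at sites that were also marked in M2 macrophages. Of the 30 M2 peaks, 24 (80.0%) overlapped no THP-1 peak, beside 63.0% over the whole M2 list. The exact 95% binomial interval of the shared M2 share, 7.71 to 38.6%, includes the 37.0% of the whole list, so these numbers alone do not set the cluster apart. Of the 9 THP-1 peaks 1 overlapped no M2 peak, beside 24.7% over the whole THP-1 list. The interval of the shared THP-1 share, 51.8 to 99.7%, likewise includes the 75.3% of the whole list. The intervals cover counting error only, and neighbouring peaks are not independent. Peaks of both lists had 7.05 kb in common, which is 13.7% of the M2 and 90.1% of the THP-1 covered length. These shares of length were not computed over the whole lists, so they do not set the cluster apart. The THP-1 peak without an M2 counterpart spanned 113507551 to 113508195, before IL1A, with 5.91-fold enrichment.

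The marked sequence was unevenly spread among the genes. The 281 kb from IL1B to IL1RN, which hold the IL36 genes, had 34.5 kb of peaks in M2 macrophages and 3.19 kb in THP-1 cells. The 44 kb between IL1A and IL1B had 10.3 kb in M2 macrophages and 3.12 kb in THP-1 cells. Inside IL1RN the values were 3.40 kb in M2 macrophages and 0.505 kb in THP-1 cells. Inside IL1A, by its rounded bounds, they were 0.927 kb in M2 macrophages and 0 in THP-1 cells. Inside IL1B neither list had a peak. As a share of a segment's length, M2 coverage was highest between IL1A and IL1B, at 23.4%, followed by IL1RN at 19.98%. THP-1 coverage was also highest between IL1A and IL1B, at 7.09%.

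**Figure D2:**
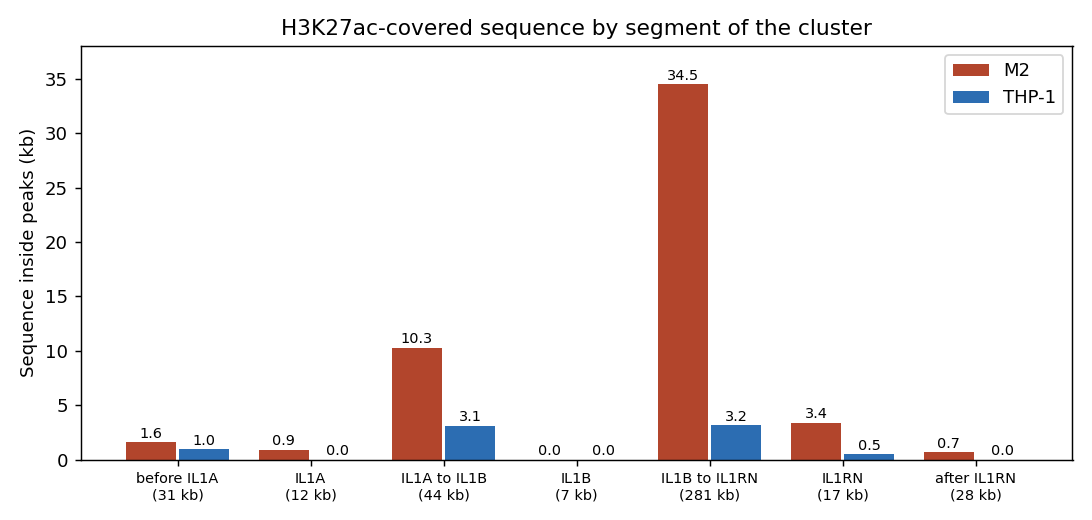
Sequence inside H3K27ac peaks, in kb, in each of the 7 segments of the cluster, with the segment's length under its name. M2 bars stand left of THP-1 bars. The M2 bar is the higher in 6 segments, and in the segment of the IL1B gene both are at 0.

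Near the rounded start of IL1A a peak was called in M2 macrophages and none in THP-1 cells. The M2 peak from 113542154 to 113542773 ended 0.227 kb downstream of the rounded start, with 7.54-fold enrichment and 38 fragments over the summit. The number of fragments is not in the lists and was recovered from the fold and the p-value of each peak. A second M2 peak, from 113541640 to 113541946, was weaker, with 3.87-fold enrichment and 26 fragments. In GRCh38 the first listed starts of IL1A and IL1B lie at 112784493 and 112836779. These are further apart than the rounded starts, by more than rounding to 1 kb allows. If this spacing also holds in hg19, the listed IL1A start lies below the rounded one, and the first peak lies over or upstream of it. The builds were not converted and the bounds are rounded, so whether this peak covers the promoter printed above cannot be told. The nearest THP-1 peak began 7.72 kb upstream of the rounded start.

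That THP-1 peak, from 113550718 to 113551850, belonged to the best matched site of the cluster. An M2 peak from 113550135 to 113553481 covered it, and the summits lay 3 bp apart. Over them stood 140 fragments in M2 macrophages and 69 in THP-1 cells. Such fragment numbers are not scaled for depth, and over all overlapping pairs of the lists their median ratio of M2 to THP-1 was 1.30. The M2 peak was 3347 bp wide, reached a further THP-1 peak at 113552099 to 113552750 and had 10.98-fold enrichment. The M2 list held 7 further peaks between IL1A and IL1B, of 5.16-fold to 15.2-fold enrichment. A single THP-1 peak stood among them, at 113569009 to 113570342, and with 8.68-fold enrichment it had the highest fold and, at 1334 bp, the largest width of the 9. Its M2 counterpart from 113568902 to 113571365 had 14.0-fold enrichment. There 132 fragments lay over the M2 summit and 43 over the THP-1 summit.

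At IL1B both lists marked the upstream side of the gene and not its start. The M2 peak from 113596185 to 113596992 had its summit 2.70 kb upstream of the rounded start, with 3.11-fold enrichment and 97 fragments. Its low fold went with a local background 13.2 times the lowest of the M2 list. A second M2 peak, from 113597440 to 113600675, had its summit 4.75 kb upstream, with 10.3-fold enrichment and 117 fragments. In THP-1 cells the peaks from 113597315 to 113598417 and from 113598572 to 113599334 had summits 3.65 and 5.05 kb upstream. They had 5.33-fold enrichment with 26 fragments and 3.99-fold with 49 fragments. Both overlapped the second M2 peak and neither the first. An enhancer a few kilobases upstream of IL1B that responds to lipopolysaccharide is known in human monocytic cells.

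The widest peak of the cluster lay further out on the upstream side of IL1B and began 39.7 kb from its start. In M2 macrophages it spanned 13.3 kb, from 113633745 to 113647086, with 25.5-fold enrichment and 187 fragments. Only 9 of the 56420 M2 peaks were wider, and 131 had a higher fold. It alone made up 26.0% of the M2 covered length in the cluster. The THP-1 peak inside it, from 113637370 to 113638695, was 1326 bp wide with 4.41-fold enrichment, 23 fragments and a -log10 q of 7.57. The summits were 51 bp apart.

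From there to the THP-1 peak inside IL1RN the THP-1 list was empty for 246.5 kb. Gaps were not computed over the whole lists, so its length does not set the cluster apart. By the choice of this interval, M2 peaks wholly inside it overlap no THP-1 peak. The M2 list held 13 whole peaks in the same interval with 19.1 kb of sequence, including the one from 113881117 to 113883177 inside IL1RN. Of these, 3 stood out within the M2 list. The peak from 113692595 to 113696283 was 3.69 kb wide with 11.9-fold enrichment and 186 fragments. The one from 113813180 to 113815423 had 21.2-fold enrichment and 150 fragments, a fold above that of 99.3% of M2 peaks. The one from 113860276 to 113864119 had 23.5-fold enrichment and 164 fragments, with 217 M2 peaks of higher fold. It ended 10.9 kb before the outermost start of IL1RN. The longest stretch without a peak in M2 macrophages, from 113710748 to 113811334, measured 100.6 kb and lay in the same interval.

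IL1RN itself had peaks inside the gene in both lists, but the THP-1 peak was weak, with a -log10 q of 5.60, and was lost when a -log10 q of at least 10 was asked for. The M2 peak from 113884493 to 113885828 had 5.96-fold enrichment and 105 fragments. The THP-1 peak from 113885218 to 113885722 lay wholly inside it, with 2.55-fold enrichment and 43 fragments, and the summits were 15 bp apart. These summits stood 10.4 kb downstream of the rounded outermost start. As given above, the inner RefSeq starts lie 9.52 and 9.63 kb downstream of the first in GRCh38. The builds were not converted, so no base position ties the peaks to a start. A second M2 peak inside the gene, from 113881117 to 113883177, had 9.51-fold enrichment and 67 fragments and no THP-1 counterpart. At the outermost start the nearest M2 peak, from 113869835 to 113870556, ended 4.44 kb upstream with 7.19-fold enrichment and 33 fragments.

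The M2 peaks of the cluster included broad and strongly enriched ones by the standard of their own list. By fold enrichment 7 of the 30 M2 peaks stood in the top 10% of the M2 list, and by width 7 did so. Of the 9 THP-1 peaks 1 stood in the top 10% of the THP-1 list by fold and 0 by width. The 6 M2 peaks that overlapped a THP-1 peak had a median width of 2850 bp and 93 to 187 fragments. The 24 others had a median width of 697 bp and 12 to 186 fragments. Since an overlap of 1 bp was enough, a wider peak had more room to overlap. These values by class were not computed over the whole M2 list, so they do not set the cluster apart.

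**Figure D3:**
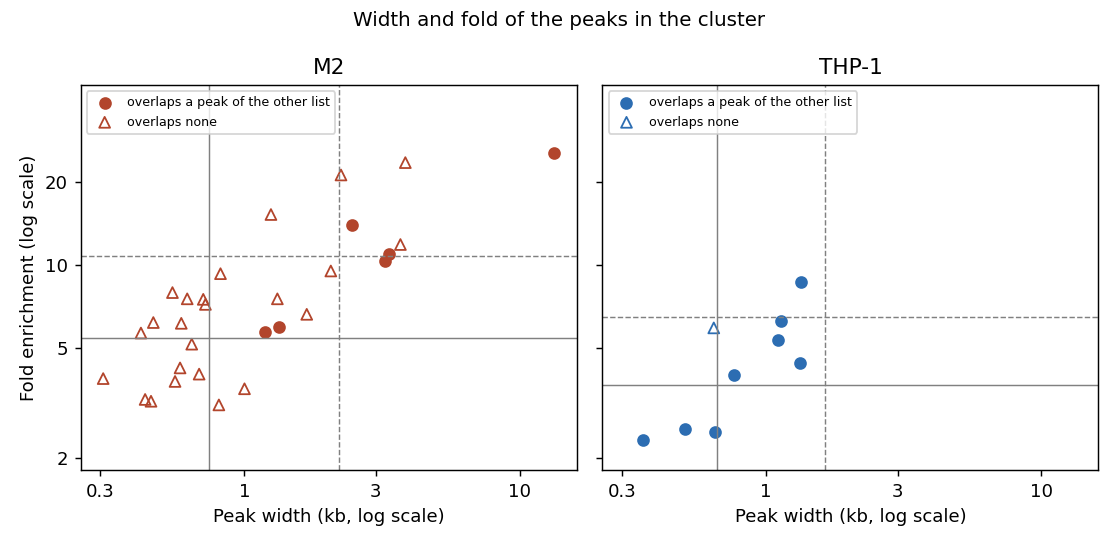
Width in kb and fold enrichment of each peak of the cluster, both on log scales, for M2 macrophages (left) and THP-1 cells (right). Filled circles overlap a peak of the other list and open triangles overlap none; solid lines mark the medians of the whole list and dashed lines its top 10%. The 13.3 kb M2 peak stands alone at the right, and 3 open M2 triangles lie above 15-fold.

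Where both lists had a peak, the M2 summit was mostly the higher. Fragments were put on a like scale by dividing the pileup over the summit by the lowest background of its list. There were 8 overlapping pairs, made of 6 M2 and 8 THP-1 peaks, so the pairs are not separate sites. The level was higher in M2 in 7 of the 8 pairs, beside 49.9% of all pairs of the lists. At the site inside the 13.3 kb peak it was 81.2 in M2 macrophages and 13.0 in THP-1 cells. Upstream of IL1B the level of the wide M2 peak was 50.8, against 14.7 and 27.8 at the THP-1 peaks it overlapped, whose summits lay 1097 and 294 bp from the M2 summit. Inside IL1RN the level was 45.6 in M2 macrophages and 24.4 in THP-1 cells. The exception lay before IL1A, where the M2 peak from 113521065 to 113522248 reached 40.4 and the THP-1 peak from 113521795 to 113522150 reached 49.9. The THP-1 level there includes a local background 21.1 times the lowest of its list, against 6.66 times in M2 macrophages. Background differed in both directions at the other pairs. It was higher in M2 at the THP-1 peak from 113597315, at 4.47 against 2.31, and lower in M2 inside IL1RN, at 7.23 against 9.22. The median ratio of the M2 to the THP-1 level was 2.11 in the cluster and 0.999 over all 24117 overlapping pairs with recovered fragments. That of the 13.3 kb site, 6.24, exceeded 99.0% of all pairs. These levels still contain the local background at each site. Its median ratio of M2 to THP-1 was also higher in the cluster, at 0.975 against 0.481 over all pairs. The part of this background in the higher level ratio was not tested.

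**Figure D4:**
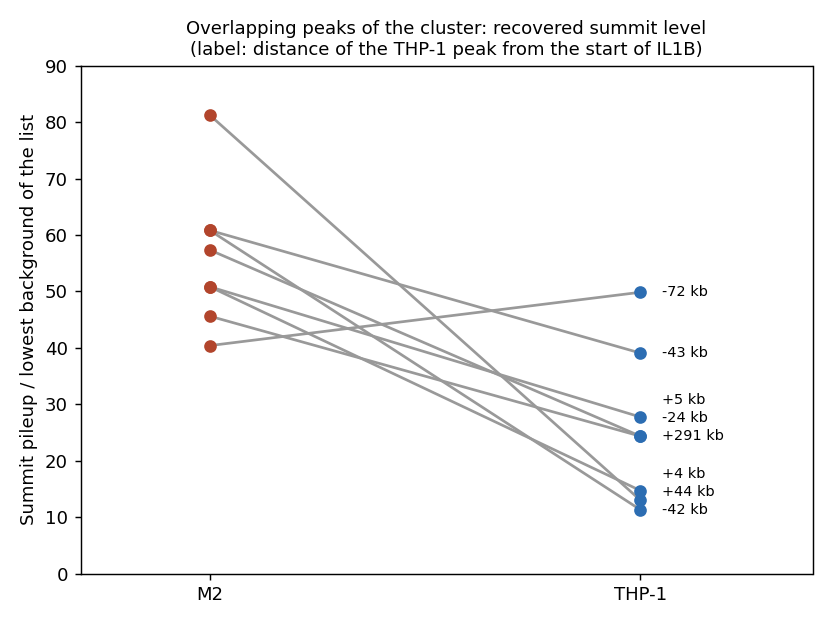
Pileup over the summit divided by the lowest background of the list (no unit) for the 8 overlapping pairs of the cluster, M2 on the left and THP-1 on the right, each pair joined by a line. Labels give the distance of the THP-1 peak from the start of IL1B along the chromosome. An M2 peak that overlaps a pair of THP-1 peaks is drawn once with 2 lines, and in 7 of the 8 pairs the M2 point is the higher.

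The local background against which the peaks were called also differed between the lists. It was not in the lists and was recovered together with the fragments. At the summits of the cluster it had a median of 2.22 times the lowest of the list in M2 macrophages and 4.24 times in THP-1 cells. Over the whole lists these medians were 2.38 in M2 macrophages and 5.04 in THP-1 cells, and a higher background makes a peak harder to call. At the 8 pairs of the cluster the median ratio of M2 to THP-1 background was 0.975, against 0.481 over all pairs. The THP-1 background at sites without a THP-1 peak is not in the list, so its part in the 24 unmatched M2 peaks was not tested. The copy number of the cluster in either cell type was not analysed here, and its part in the fragments was not tested.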

How the data were processed

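Chromatin was fixed with formaldehyde, sonicated and sequenced as paired ends, per the labels' protocols. Reads were aligned and peaks called on hg19 with tools that, per the submitters' processing notes, were Bowtie2 and MACS2 2.1.0; no settings or use of the input are stated. The files give the fold enrichment of a peak (a ratio over local background) as the authors deposited it. The -log10 p and -log10 q values were likewise deposited by the authors, in narrowPeak column order without a header. The Y chromosome was left out.

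Peaks sharing at least 1 bp counted as overlapping. Fragments over a summit were recovered by solving the fold, as pileup plus 1 over background plus 1, together with the Poisson p-value for whole numbers (tolerance 0.003, slightly wider at high pileup). The M2 pileup had a scale of 0.842 and the THP-1 pileup of 1, and 99.5% of M2 and 98.3% of THP-1 peaks had a single solution. These numbers are an inference and not counts the authors gave. The lowest background was 1.94 in M2 macrophages and 1.77 in THP-1 cells. Depth as total reads is unknown. Recovery and overlap were tested on simulated data. The simulated peaks were built with the same formula, so this test cannot show that the deposited values follow it. Their backgrounds did not reach the highest ones of the cluster. Python 3.11.15, numpy 2.4.6, pandas 2.3.3 and scipy 1.17.1 were used.

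The members, gene bounds, motifs and rules were chosen with earlier results of these data known. The named peaks are those overlapping a gene or within 5 kb of it, the 3 of highest fold and the 3 widest of each list, and THP-1 peaks without M2 overlap. Pair partners, peaks nearest a start and ranges were added after their values were seen. Genes of like pattern were not sought, because each gene has 1 value per cell type.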

Additional observations from a re-analysis of the deposited data

How the results depend on the processing

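More M2 than THP-1 sequence was covered in every setting that gave covered lengths. At a -log10 q of at least 10, 5 THP-1 peaks remained and 46.3 kb of M2 and 4.98 kb of THP-1 sequence were covered, a ratio of 9.30 (3.003 over the whole lists). In lists cut to the 31444 peaks of highest -log10 q, 19 M2 peaks covered 44.1 kb and the ratio was 5.65 (1.70 over the whole lists). With 50 kb added on each side there were 16 THP-1 peaks, 65.3 kb of M2 and 13.1 kb of THP-1 sequence, and the ratio was 4.97. Without the widest M2 peak, which was tried after seeing the data, M2 peaks covered 38.04 kb and the ratio was 4.87. Within 2 kb of a rounded start there were 2 M2 peaks in place of 1, both at IL1A, and 0 THP-1 peaks. At the stricter threshold and in lists of equal length, M2 coverage was the greater in 5 segments in place of 6. At the stricter threshold the THP-1 peaks inside IL1RN and inside the 13.3 kb M2 peak (-log10 q 7.57) were lost. So were those beginning at 113521795 (9.66), the exception among the pairs, and at 113552099 (2.30). Each of these belonged to an overlapping pair, and the pair levels were not recomputed without them. The weaker M2 peak inside the rounded bounds of IL1A was among the M2 peaks lost. Not divided by the lowest background, the median fragment ratio at pairs was 2.76 (1.30 over all pairs of the lists), values that also carry the difference in depth. The share of M2 peaks of the cluster that overlapped a THP-1 peak was 14.3% at the stricter threshold and 31.6% in lists of equal length. Over the whole M2 list, 74.2% and 51.0% overlapped no THP-1 peak in these settings, beside 63.0% in the main one. Shares stayed inside their main intervals, also with an overlap of at least 50% of the shorter peak, but these intervals are wide. Merging peaks within 500 bp left 20 M2 and 7 THP-1 peaks. No paired analysis was possible because each group has 1 library. The recovered fragments and the 1 kb rounding of gene bounds limit the precision.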
